A study of Mus musculus with 4 samples.

Results

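Immediate early genes are genes that a cell transcribes within minutes of a stimulus, without first making new protein. Most encode transcription factors or feedback proteins: AP-1 proteins (the Fos and Jun families), EGR zinc-finger factors, NR4A orphan nuclear receptors, phosphatases that switch MAP kinases off, and RNA-decay proteins. In hormone cells of the pituitary they respond to hypothalamic signals through calcium, cAMP and MAP kinases. In many tissues they also respond to enzymatic dissociation. The 37 genes described here were taken from a fixed list of such genes by symbol, and all 37 were found among the 55357 genes of the deposited matrix.

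The data are 10x Genomics 3′ single-cell libraries of whole pituitaries from male mice that were 4 weeks old at the start and were fed for 12 weeks. HFD mice received a high-fat diet and ND mice a normal diet, with 2 libraries for each diet and 3 pituitaries pooled into each library. The labels give no strain or genotype. All tissue was digested with enzyme at 37 °C for 1 h, and the part of digestion in any level was not tested. The labels also give a cell line (Lbt2) and a cell type (gonadotroph) for every library, but the matrix held all hormone classes of the gland, and only 733 of the 36206 cells used were gonadotroph-like.

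All libraries share a single matrix, in which barcodes carry a suffix from 1 to 4 that no label ties to a diet. No diet comparison was therefore made, and the suffixes are called sets 1 to 4. They held from 81621358 to 92665029 unique molecular identifiers (UMIs, counted transcript molecules) each, with median UMIs per barcode from 7167 to 8070.5. There are no groups of replicates, so values are given for each set, no p-value is given, and intervals (95%, exact Poisson or Clopper-Pearson) cover counting error only. Of the barcode sequences, 156 occurred in more than 1 set, which touched 279 of the cells used.

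Cells were clustered without the 37 genes and clusters were named from marker genes, giving 12 classes that each held 20 or more cells per set (31577 cells). Levels are CPM, UMIs of a gene per 1000000 UMIs of the class. In 7 of the 12 classes each marker had its highest level in its own class. In the lactotroph-like class Agtr1b had no counts and Drd2 was higher elsewhere. Pomc and Tbx19 are shared by the corticotroph-like and melanotroph-like classes, and Cga was higher in gonadotroph-like than in thyrotroph-like cells. In the stem or folliculostellate-like class, S100b (0.597 CPM) and Fxyd1 were higher elsewhere. Left unnamed were 4267 cells (11.8%), mostly shallow. Hormone transcripts were also counted outside their own class: Gh in T cell-like cells stood at 18.5% of its level over all classes, and Prl at 11.2%. A gene's T cell-like share near or below these values is not read as expression there.

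The 37 genes made up 2.58% of all UMIs, and from 2.44% to 2.67% over the sets, but their share differed more than 3 times between classes. Stem or folliculostellate-like cells, the Sox2-positive progenitor and support cells of the gland, had the highest share, 5.75% of their UMIs, and 6.22%, 6.33%, 6.16% and 4.40% in sets 1 to 4. Corticotroph-like cells, which make ACTH, followed with 4.81% (4.32% to 5.10% over the sets), and endothelial-like cells with 4.54% (4.26% to 4.995%). In every set these were the 3 highest classes, and none of their values overlapped those of the other 9 classes. Their order changed between sets. Endothelial-like cells were above corticotroph-like cells in set 3 (4.995% against 4.94%) and set 4 (4.75% against 4.32%), and in set 4 they were highest. All remaining classes lay between 1.71% (T cell-like) and 2.61% (macrophage or microglia-like). High shares were not limited to the compared classes. Clusters 25 and 29 were left unnamed as mixed, endothelial with fibroblast and endothelial with pericyte or mural. Cluster 25 (154 cells, median 8664 UMIs) had a share of 4.15%, and cluster 29 (40 cells, median 7895.5 UMIs) 4.205%.

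**Figure D1:**
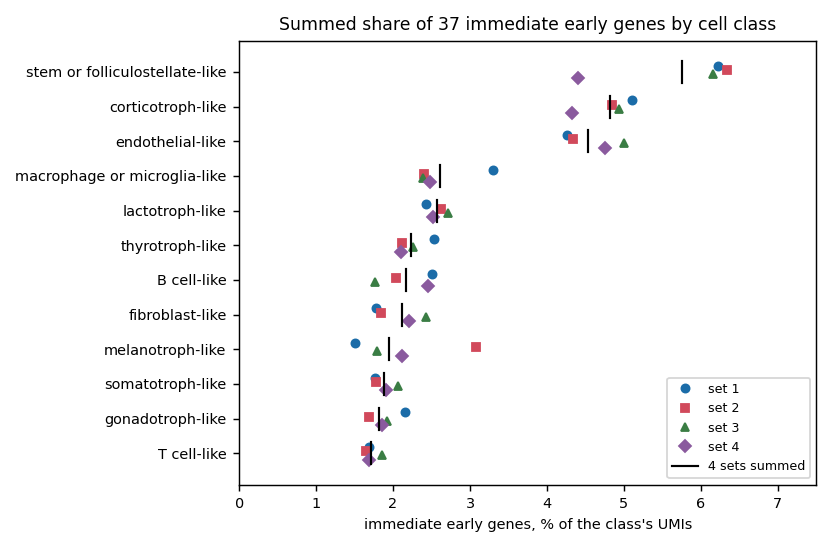
Share of each class's UMIs that came from the 37 genes (x axis, percent), with a point for each of the 4 sets and a bar for the sets summed; classes are on the y axis. Stem or folliculostellate-like, corticotroph-like and endothelial-like cells stand apart from the other 9 classes, and melanotroph-like cells of set 2 stand above those of the other sets.

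The same 3 classes were highest per cell. After each cell was thinned to 2000 UMIs, the median cell carried 116 UMIs of the 37 genes in the stem or folliculostellate-like, 97 in the corticotroph-like and 92 in the endothelial-like class. It carried 50 in macrophage or microglia-like, 42 in lactotroph-like, 30 in somatotroph-like and 28 in T cell-like cells. In sets 3 and 4 the order of the top 3 was another. Set 3 had stem or folliculostellate-like 127, endothelial-like 105 and corticotroph-like 99. Set 4 had endothelial-like 97, stem or folliculostellate-like 89 and corticotroph-like 88. The distributions overlapped: the upper decile of somatotroph-like cells was 85 UMIs and the lower decile of corticotroph-like cells was 35. Of 12703 thinned somatotroph-like cells 12 had no UMI of any of the genes, and of 7777 lactotroph-like cells 8 had none. In somatotroph-like cells Jun, Fos and Egr1 together gave 48.8% of these UMIs, and in T cell-like cells Junb, Btg2 and Jund gave 34.6%.

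These shares depend on the total they are taken from, since 7 hormone genes made up 44.4% of the UMIs of somatotroph-like cells and 22.2% of those of lactotroph-like cells. Taken from totals without the hormone genes, the share was 3.40% in somatotroph-like and 3.31% in lactotroph-like cells, and it stayed highest in stem or folliculostellate-like (6.47%), corticotroph-like (5.23%) and endothelial-like cells (4.95%). Pooled, the somatotroph-like and lactotroph-like classes changed order with the total used. By set the hormone-free share was 3.17%, 3.01%, 3.88% and 3.53% in somatotroph-like and 3.10%, 3.25%, 3.57% and 3.28% in lactotroph-like cells, so that set 2 kept the lactotroph-like class higher.

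Genes shared by all classes were few. A gene was called similar when its highest class was at most 4 times its lowest. Jund and Gadd45b met this, 2 of 37 genes, against 27.0% of all 18725 genes tested (at least 100 UMIs over the classes). Jund, the AP-1 protein least dependent on a stimulus, ranged from 1336 CPM in T cell-like to 2998 CPM in stem or folliculostellate-like cells, a ratio of 2.24. Its stem or folliculostellate-like level was 3177, 3484, 3122 and 2277 CPM in sets 1 to 4. Set 4 was the lowest, and the set values of these classes, at most 1531 CPM in T cell-like cells, did not overlap.

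Gadd45b, a stress sensor that activates p38 and JNK signalling, ranged from 212 CPM in somatotroph-like to 729 CPM in corticotroph-like cells, a ratio of 3.44. Its corticotroph-like level was 751, 685, 805 and 709 CPM in sets 1 to 4. These are close to one another and above the somatotroph-like values of 150 to 246 CPM. The next most even genes lay just past the limit. Dusp1, a nuclear phosphatase that inactivates MAP kinases, had a ratio of 4.01, with 1706, 1404, 1705 and 1850 CPM over the sets in endothelial-like cells.

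Junb had a ratio of 4.06, Ier2 4.98 and Btg2, an antiproliferative gene, 5.96. Ier2 in its highest class, the stem or folliculostellate-like, was 2060, 1986, 1891 and 1289 CPM over the sets. Btg2 in corticotroph-like cells was 3796, 3961, 5136 and 4086 CPM. Set 4 was lowest for Ier2 and set 3 highest for Btg2, and the class that led Ier2 or Btg2 was not the same in every set. The count of similar genes depends on the smallest classes. Over the 9 classes with 1000000 or more UMIs per set, a choice made after seeing the data, it was 5 (Fos, Fosl2, Jund, Dusp1 and Gadd45b), against 39.9% of all genes.

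Of the 37 genes, 35 had at least 3 UMIs in each of the 12 classes, against 46.2% of all genes tested. UMIs in a class are not all read as expression: in T cell-like cells Ccn1 stood at 6.92%, Npas4 at 14.7%, Ccn2 at 16.4%, Egr1 at 20.5% and Gadd45g at 20.9% of the level over all classes, near or below Gh. The exceptions were Fosl1 and Ccn2, with 0 UMIs in the 141 B cell-like cells, which allows up to 9.88 CPM, and Ccn2 also had only 1 UMI in T cell-like cells. The median ratio of highest to lowest class was 12.6 for the 37 genes and 15.5 for all genes tested.

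**Figure D2:**
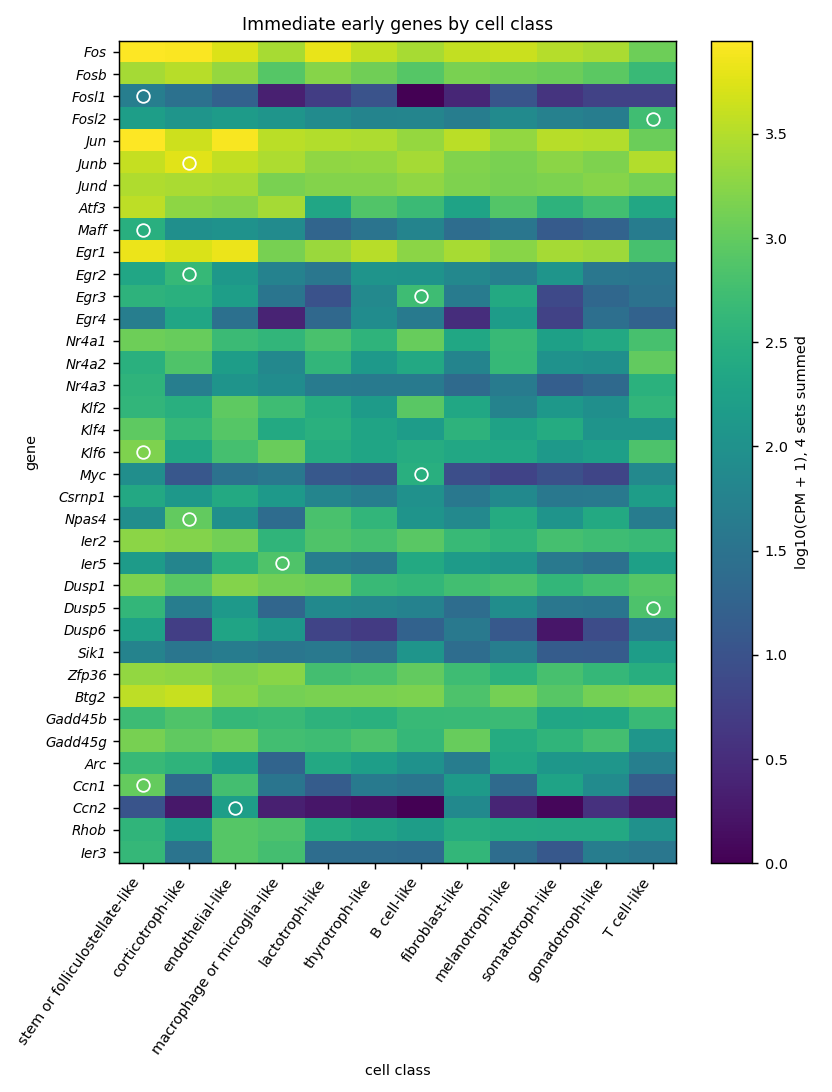
Level of the 37 genes (rows) in 12 cell classes (columns, ordered by their summed share), as log10(CPM + 1) over the 4 sets summed. Open circles mark the 13 genes led by the same class in all 4 sets. Fos, Jun and Egr1 are bright in most columns and duller in T cell-like cells, while Ccn2 and Fosl1 are dark in most.

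A minority of the genes was led by a single class, at a share near that of all genes. The same class had the highest CPM in all 4 sets for 13 of 37 genes (35.1%), against 31.3% of all genes tested, and 6 of these also stood at least 2 times above the next class, against 15.2%. The 13 were spread over 6 classes. No gene was led by somatotroph-like (0.475% of all genes), lactotroph-like (1.58%), melanotroph-like (1.85%), gonadotroph-like (3.42%), thyrotroph-like (1.90%) or fibroblast-like cells (3.47%). By pooled level alone, stem or folliculostellate-like cells were highest for 16 genes, against 7.33% of all genes. Corticotroph-like and endothelial-like cells were highest for 7 each (12.1% and 7.94% of all genes). T cell-like cells were highest for 4 (11.2%), B cell-like for 2 (11.5%) and macrophage or microglia-like for 1 (6.62%). The other hormone classes, somatotroph-like (1.55%), lactotroph-like (4.64%), melanotroph-like (8.20%), gonadotroph-like (9.68%) and thyrotroph-like (10.0%), and with them fibroblast-like cells (9.23%), were highest for 0.

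Corticotroph-like cells led Junb, Egr2 and Npas4, against 3.60% of all genes. Npas4, a factor induced by calcium entry in excitable cells, was 763, 1096, 1109 and 969 CPM there in sets 1 to 4 (pooled 997, interval 983 to 1011). The lowest of these values lay just below the highest lactotroph-like one (773 CPM), but within each set the corticotroph-like class was higher. Lactotroph-like cells came next with 661 CPM, so the lead was 1.51 times. Its T cell-like level of 44.2 CPM was 14.7% of its level over all classes, below the share of Gh there.

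Egr2, a zinc-finger factor that shares its DNA site with Egr1, was 507, 409, 454 and 441 CPM in corticotroph-like cells. That is 2.04 times the stem or folliculostellate-like level, whose set values of 184 to 241 CPM did not overlap. Junb was 6346, 5920, 5779 and 5109 CPM, above the stem or folliculostellate-like range of 3068 to 4481 CPM.

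Stem or folliculostellate-like cells led Ccn1, Fosl1, Klf6 and Maff, against 3.57% of all genes. Ccn1, a secreted matrix protein and target of serum and YAP signalling, was 1131, 1008, 1396 and 680 CPM in sets 1 to 4 there, and 1.76 times the endothelial-like level of 586 CPM. Set 4 was the lowest and its value lay within the range of endothelial-like cells over the sets (469 to 761 CPM), but within each set the class order was the same. Maff, a small Maf protein that pairs with other leucine-zipper factors, was 280, 354, 434 and 216 CPM, 3.06 times the next class. All 4 values were above the endothelial-like ones, which reached at most 124 CPM.

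Fosl1, a Fos protein of late AP-1 complexes, was low in all classes. In stem or folliculostellate-like cells it was 27.5, 75.6, 65.2 and 34.8 CPM, the widest spread between sets of any of the 37 genes in its leading class, 2.74 times. Its corticotroph-like values of 22.3 to 33.0 CPM overlapped that range, although within each set the stem or folliculostellate-like class was higher. Klf6, a Krüppel-like factor, reached 1536 CPM there and 1108 CPM in macrophage or microglia-like cells.

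Endothelial-like cells led Ccn2 (3.19% of all genes were led by this class), a matrix protein related to Ccn1, with 178, 90.1, 208 and 192 CPM. Set 2 was the lowest. Fibroblast-like cells followed with 74.7 CPM, 2.19 times lower, and somatotroph-like cells had 0.191 CPM. Over the 9 deeper classes, which leave fibroblast-like cells out, its lead was 17.03 times. Pituicyte-like cells, the glia of the posterior lobe, were not among the compared classes. Their pooled Ccn2 level was 220 CPM, against 164 CPM in endothelial-like cells.

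Immune classes led 5 genes, against 3.77% of all genes for macrophage or microglia-like, 3.16% for T cell-like and 1.32% for B cell-like cells. Macrophage or microglia-like cells led Ier5, an early gene linked to heat shock factor activity, with 848, 605, 711 and 752 CPM, 2.09 times the endothelial-like level. No set value overlapped with the endothelial-like range of 244 to 458 CPM. T cell-like cells led Fosl2 (509, 536, 677 and 504 CPM, 3.44 times the next) and Dusp5, a nuclear ERK phosphatase (803, 689, 660 and 616 CPM, 1.65 times the next). For both genes all 4 sets were above every set of the next class.

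B cell-like cells led Egr3 and Myc from few cells, between 32 and 40 a set. Egr3, needed for antigen responses in lymphocytes, was 439, 529, 746 and 366 CPM from 27 to 58 UMIs a set. Stem or folliculostellate-like cells followed closely with 353 CPM, and the ranges overlapped. Myc, which drives growth, was 276, 329, 373 and 240 CPM from 17 to 29 UMIs a set, 3.49 times the next class and with no overlap. With B cell-like, T cell-like and fibroblast-like classes left out for their low depth (61543 UMIs in the smallest B cell-like set), 14 genes had a single leader in all sets, against 41.0% of all genes. Egr3 and Fosl2 no longer had one, Myc and Dusp5 were then led by stem or folliculostellate-like cells, and Nr4a2, Nr4a3 and Klf2 were added. These leads also rest on how cells were classed: with classes by marker score, the B cell-like level was 24.0 CPM for Egr3 and 19.0 CPM for Myc, and the T cell-like level 173 CPM for Fosl2 and 196 CPM for Dusp5.

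Among the 6 hormone classes alone, corticotroph-like cells led 21 of 37 genes in every set, against 10.7% of the 17432 genes tested in those classes. The 21 included all 9 basic leucine-zipper factors on the list (Fos, Fosb, Fosl1, Fosl2, Jun, Junb, Jund, Atf3 and Maff). They also included Egr1, Egr2, Nr4a1, Nr4a2, Klf2, Npas4 and Zfp36, the RNA-decay protein tristetraprolin. Each other leader had 1 gene: lactotroph-like cells led Dusp1 (3.91% of genes), somatotroph-like cells Ccn1 (1.66%) and melanotroph-like cells Ier5 (5.04%). Gonadotroph-like (8.34%) and thyrotroph-like cells (5.62%) led 0. Some class led in every set for 24 genes, against 35.2%, and 19 were at a similar level over the 6 classes, against 67.8%. With totals free of hormone genes corticotroph-like cells led 15, against 6.34% of genes. Fos, Fosl2, Jun, Atf3, Klf2 and Gadd45b were then no longer among them.

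Corticotroph-like and melanotroph-like cells both express Pomc, the precursor of ACTH and MSH, but differed in these genes. Of 36 tested, 17 were at least 2 times higher in corticotroph-like cells with the same direction in all sets, against 9.55% of genes, and 1, Dusp6, was at most 1/2, against 5.98%. Egr2 stood at 447 CPM against 51.7, a ratio of 8.64 (3.24 to 21.6 over the sets). Npas4 stood at 997 CPM against 270, a ratio of 3.69 (2.15 to 5.62). Of any size, 24 were higher in all sets (33.6% of genes) and 3 lower (20.7%). The median ratio was 1.98 over the 36 genes and 1.07 over all genes tested. With hormone genes out of the totals the numbers were 12 and 3, against 7.26% and 8.12%.

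Melanotroph-like cells, from the intermediate lobe, varied most between sets. Their share of the 37 genes was 1.51%, 3.08%, 1.79% and 2.11% in sets 1 to 4, from 306, 104, 137 and 215 cells. Set 2 had the highest value of the 4 sets for 25 of 33 genes tested, against 23.2% of all genes in that class. Arc, a synaptic protein induced by activity, was 76.8, 555, 159 and 305 CPM, and Egr4 was 47.9, 378, 149 and 201 CPM. In set 2 both were above their corticotroph-like values of that set (462 and 207 CPM), whereas in the other sets both were below. Heat shock genes, a separate list of 14, were also highest in set 2 of this class (1.48%, against 0.888% to 1.10%), as they were in set 2 of 10 of the 12 classes. Without set 2, 19 genes were at least 2 times higher in corticotroph-like cells. What set 2 differs in was not tested, and a diet difference cannot be told apart from other differences between libraries.

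Against stem or folliculostellate-like cells, the other class with a high share, corticotroph-like cells were lower for more of the genes than they were higher. Egr2, Egr4, Npas4 and Nr4a2 were at least 2 times higher in corticotroph-like cells, 4 of 37 against 17.1% of genes. At most 1/2 were 12 genes, against 14.8%. Of any size, 5 were higher in all sets (48.9% of genes) and 23 lower (27.4%). The median ratio was 0.689 over the 37 genes and 1.17 over all genes tested. With totals free of hormone genes the numbers were 3 (16.0%), without Egr2 at 1.97 times, and 13 (15.3%). Npas4 differed most upward, 997 against 86.9 CPM (8.51 to 14.8 times over the sets). Ccn1 and Dusp6, an ERK phosphatase of the cytoplasm, differed most downward: Ccn1 stood at 21.4 against 1033 CPM, and Dusp6 at 4.39 against 177 CPM. Fos had no single direction: it was 8476 against 8844 CPM, with ratios of 0.862 to 1.07 over the sets.

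In the stem or folliculostellate-like class set 4 had the lowest value for 29 of 37 genes, against 40.7% of all genes in that class. Hormone genes made up 18.1% of the UMIs there, against 5.69% to 10.6% in the other sets. The class joined clusters 8 and 13. Cluster 8 (1493 cells, median 8965 UMIs) had a share of 6.37%, and 6.76%, 6.54%, 6.64% and 5.29% over the sets. Cluster 13 (545 cells, median 1065 UMIs, hormone genes 33.6%) had 2.72%. By set, cluster 13 had 3.28%, 2.50%, 1.29% and 2.73%. Set 4 was thus lowest within cluster 8 and set 3 within cluster 13. With hormone genes out of the totals, the share of the whole class was 6.96%, 6.71%, 6.75% and 5.37% in sets 1 to 4. Set 4 was also lowest by that measure. The part of hormone RNA in the difference between sets was not tested. In macrophage or microglia-like cells, set 1 was highest for 25 of 33 genes, against 32.3%. Other classes shifted between sets too. Set 3 was highest for 23 of 36 genes in somatotroph-like cells, against 10.6% of all genes. Set 1 was highest for 19 of 33 in thyrotroph-like cells, against 26.6%. Set 2 was lowest for 20 of 33 in gonadotroph-like cells, against 24%. Set 1 was lowest for 28 of 33 in melanotroph-like cells, against 27.6%.

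Lactotroph-like and somatotroph-like cells, the prolactin and growth hormone classes, differed in a subset of the genes. Of 36 tested (Ccn2 had too few counts), 13 were at least 2 times higher in lactotroph-like cells in the same direction in all sets, against 14.8% of genes, and Ccn1 and Egr2 were at most 1/2, against 7.16%. Fos was just inside this limit (2.0005) and Arc just outside (1.96). Of any size, 29 were higher in all sets, against 65.1% of genes, and 4 lower, against 15.1%. The total matters here: the median ratio of all 16206 genes was 1.30 with all UMIs and 0.931 with hormone genes left out. With hormone genes left out 7 genes passed upward, against 8.50%, namely Npas4, Nr4a1, Nr4a2, Nr4a3, Egr4, Dusp6 and Sik1. Downward 3 passed, against 11.2%: Ccn1, Egr2 and Atf3.

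Npas4 was 509, 773, 689 and 695 CPM in lactotroph-like cells and 69.1, 134, 118 and 107 CPM in somatotroph-like cells, 6.14 times higher (5.77 to 7.37 over the sets) and 4.39 times with hormone genes left out. At 2000 UMIs a cell, 47.2% of lactotroph-like cells (46.05% to 48.3%) had a Npas4 UMI, against 14.9% of somatotroph-like (14.2% to 15.5%) and 4.96% of T cell-like cells. No set of one class overlapped the other. Lactotroph-like cells with a Npas4 UMI carried a mean of 65.6 UMIs of the other 36 genes and those without carried 33.2, in thinned cells. The direction was the same in corticotroph-like cells (111 with and 79.5 without) and in somatotroph-like cells (58.2 and 36.2).

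All 3 NR4A orphan receptors, which act without a known hormone ligand, were higher in lactotroph-like cells. Nr4a1 was 539, 616, 784 and 675 CPM in lactotroph-like and 131, 117, 225 and 211 CPM in somatotroph-like cells, 3.81 times higher. Nr4a2 stood at 395 against 102 CPM (3.88 times) and Nr4a3 at 43.6 against 13.9 CPM (3.13 times). Over the sets the ratios were 3.20 to 5.26 for Nr4a1, 3.42 to 4.26 for Nr4a2 and 2.80 to 3.54 for Nr4a3. Of all genes tested, 65.1% were higher in lactotroph-like cells in every set, at any size. None of the 3 receptors had its highest level in a hormone class when pooled. Nr4a1 was 1178 CPM in stem or folliculostellate-like and 1074 CPM in corticotroph-like cells, which were higher in set 4. Nr4a3 was 328, 389, 549 and 246 CPM in stem or folliculostellate-like and 361, 303, 380 and 304 CPM in T cell-like cells, which were higher in sets 1 and 4. Nr4a2 was 985 CPM in T cell-like cells, but in set 3 corticotroph-like cells were higher (1230 against 990.3 CPM).

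Egr4 stood at 20.7 against 5.01 CPM, and Sik1, a cAMP-induced kinase that restrains CREB coactivators, at 37.9 against 13.3 CPM. Dusp6 stood at 5.36 against 0.707 CPM, low in both. Dusp1 was 2.72 times higher in lactotroph-like cells, and 1.95 times with hormone genes left out. In the other direction Ccn1 was 11.0, 11.2, 15.4 and 13.5 CPM in lactotroph-like and 132, 132, 274 and 235 CPM in somatotroph-like cells, 15.2 times higher in the latter. The lactotroph-like level was near the T cell-like one (13.6 CPM). Egr2 was 36.1 against 114 CPM, 3.14 times higher in somatotroph-like cells.

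**Figure D3:**
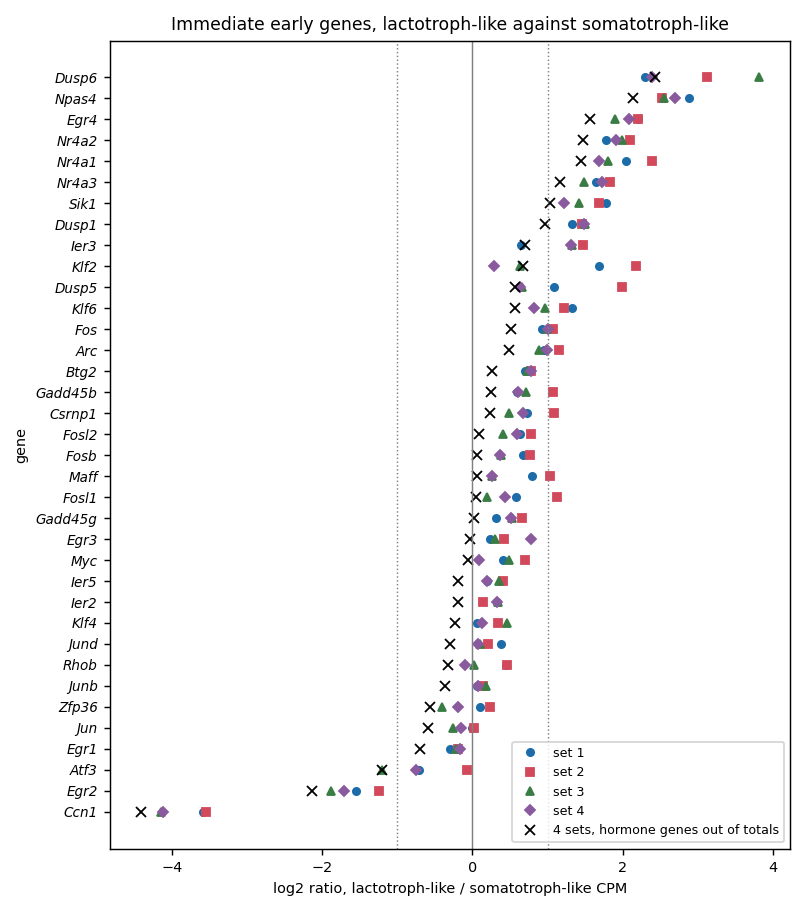
Log2 ratio of lactotroph-like to somatotroph-like CPM (x axis) for the 36 genes tested (y axis), with a point for each set; crosses give the 4 sets summed with hormone genes left out of the totals, and dotted lines mark 2-fold. Npas4, Egr4, Dusp6 and the Nr4a genes lie to the right in every set, and Ccn1 and Egr2 to the left.

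The bases before the start of transcription are printed for the genes that differed between these classes under both totals, because cAMP and calcium act on many early genes through CREB, whose short site is TGACG. Dusp6 also met this rule, but it is low in both classes, its window held 0 matches, and its bases are not printed. The printed lines are therefore not all of the genes that passed. RefSeq tables of GRCm38.p6 held no entry for Sik1. Where a gene had several start sites the first listed was taken. Each line gives the 250 bases upstream, 5′ to 3′ on the gene's strand, with TGACG or its complement CGTCA in capitals (both strands searched, overlapping matches both counted).
Npas4: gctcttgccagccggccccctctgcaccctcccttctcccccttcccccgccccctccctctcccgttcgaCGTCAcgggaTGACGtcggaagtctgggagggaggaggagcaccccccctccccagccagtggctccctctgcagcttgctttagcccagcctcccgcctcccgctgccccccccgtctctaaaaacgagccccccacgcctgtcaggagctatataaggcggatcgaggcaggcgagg
Nr4a1: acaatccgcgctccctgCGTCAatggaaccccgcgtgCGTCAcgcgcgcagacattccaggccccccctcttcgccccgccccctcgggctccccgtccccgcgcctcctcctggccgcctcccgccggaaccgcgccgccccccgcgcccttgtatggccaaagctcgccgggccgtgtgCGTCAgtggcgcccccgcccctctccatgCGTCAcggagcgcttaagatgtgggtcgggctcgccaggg
Nr4a2: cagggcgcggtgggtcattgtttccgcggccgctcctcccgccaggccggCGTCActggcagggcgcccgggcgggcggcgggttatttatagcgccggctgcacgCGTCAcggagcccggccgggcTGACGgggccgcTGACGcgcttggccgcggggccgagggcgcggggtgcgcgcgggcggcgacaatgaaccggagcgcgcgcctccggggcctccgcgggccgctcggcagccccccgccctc
Nr4a3: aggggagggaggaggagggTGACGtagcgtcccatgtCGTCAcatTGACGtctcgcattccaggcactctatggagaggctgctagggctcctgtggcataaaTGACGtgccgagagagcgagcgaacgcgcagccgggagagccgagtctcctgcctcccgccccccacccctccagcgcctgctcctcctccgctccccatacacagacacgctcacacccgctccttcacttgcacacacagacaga
Egr4: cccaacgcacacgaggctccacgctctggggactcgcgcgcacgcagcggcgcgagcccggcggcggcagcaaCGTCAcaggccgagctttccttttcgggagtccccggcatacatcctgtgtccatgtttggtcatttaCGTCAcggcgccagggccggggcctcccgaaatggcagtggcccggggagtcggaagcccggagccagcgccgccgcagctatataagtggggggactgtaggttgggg
Ccn1: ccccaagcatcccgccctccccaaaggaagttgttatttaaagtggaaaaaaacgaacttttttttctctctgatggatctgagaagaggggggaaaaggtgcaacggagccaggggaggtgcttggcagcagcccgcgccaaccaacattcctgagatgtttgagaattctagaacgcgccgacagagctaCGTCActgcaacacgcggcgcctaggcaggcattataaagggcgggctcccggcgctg
Egr2: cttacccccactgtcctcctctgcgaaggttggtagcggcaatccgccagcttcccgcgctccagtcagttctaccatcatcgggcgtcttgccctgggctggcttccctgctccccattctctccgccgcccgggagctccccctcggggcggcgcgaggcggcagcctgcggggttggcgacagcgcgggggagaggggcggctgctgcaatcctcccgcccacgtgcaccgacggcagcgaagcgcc

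Matches were counted in these windows as a description of letters only. Nr4a1, Nr4a2 and Nr4a3 held 4 matches each, Npas4 and Egr4 held 2 each, Ccn1 held 1 and Egr2 held 0. The window of Dusp6, higher in lactotroph-like cells and not printed, also held 0. Among 32851 promoter entries of that length, 17.8% held at least 1 match and 3.90% at least 2. Of the 29 genes of the list with an entry, 16 held at least 1 and 8 at least 2. The Npas4 window is chr19:4989972-4990221 on the minus strand, and those of Nr4a1 (chr15:101266596-101266845, plus), Nr4a2 (chr2:57124004-57124253, minus) and Nr4a3 (chr4:48045055-48045304, plus) lie on 3 other chromosomes. Egr4 is at chr6:85513590-85513839 (minus), Ccn1 at chr3:145649986-145650235 (minus) and Egr2 at chr10:67535249-67535498 (plus).

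Large differences also lay within classes. Lactotroph-like cells formed cluster 0 (4384 cells) and cluster 1 (3745 cells), although none of the 37 genes took part in clustering. The share of the 37 genes was 1.16% in cluster 0 (1.11% to 1.27% over the sets) and 3.88% in cluster 1 (3.76% to 4.02%). Of 36 genes tested, 33 were at least 2 times higher in cluster 1 with the same direction in all sets, against 2.31% of all genes, and all 36 were higher in every set, against 31.0%. The 3 below 2-fold were Ccn1, Dusp6 and Ier3. The median ratio over the 36 genes was 3.74, against 1.05 over all genes, and 0 were at most 1/2 (0.192% of genes). With totals free of hormone genes 33 passed, against 1.70%.

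Somatotroph-like cells formed cluster 3 (5762 cells, 0.772%), cluster 2 (4713 cells, 1.99%) and cluster 4 (2597 cells, 4.06%). Between clusters 4 and 3, 32 of 35 genes were at least 2 times higher in cluster 4, against 5.44% of genes, with a median ratio of 5.15 against 1.16, and all 35 were higher in every set, against 53.4%; 0 were at most 1/2 (0.174%). With totals free of hormone genes 32 passed, against 2.92%. Atf3, a stress-induced repressor of the AP-1 and CREB family, differed most: it was 1183 CPM in cluster 4 and 40.3 CPM in cluster 3, 29.4 times (26.03 to 32.2 over the sets). Myc, Sik1 and Ier3 were below 2-fold. Between clusters 2 and 3, 22 of 35 passed, against 1.34% of genes, and 0 were at most 1/2 (0.0140%); with totals free of hormone genes 21 passed, against 1.09%.

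Of the 35 genes tested in both classes, 31 passed in lactotroph-like and in somatotroph-like cells, against 1.89% of all genes tested in both. Fos differed 2.95 times in the former and 5.05 times in the latter. Npas4 was 286 CPM in the low lactotroph-like cluster and 242 CPM in the high somatotroph-like cluster 4. Ccn1 was 444 CPM in somatotroph-like cluster 4 and 16.03 CPM in lactotroph-like cluster 1. These are descriptions, since clusters were drawn from other genes of the same cells, among them early response genes that are not on the list.

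**Figure D4:**
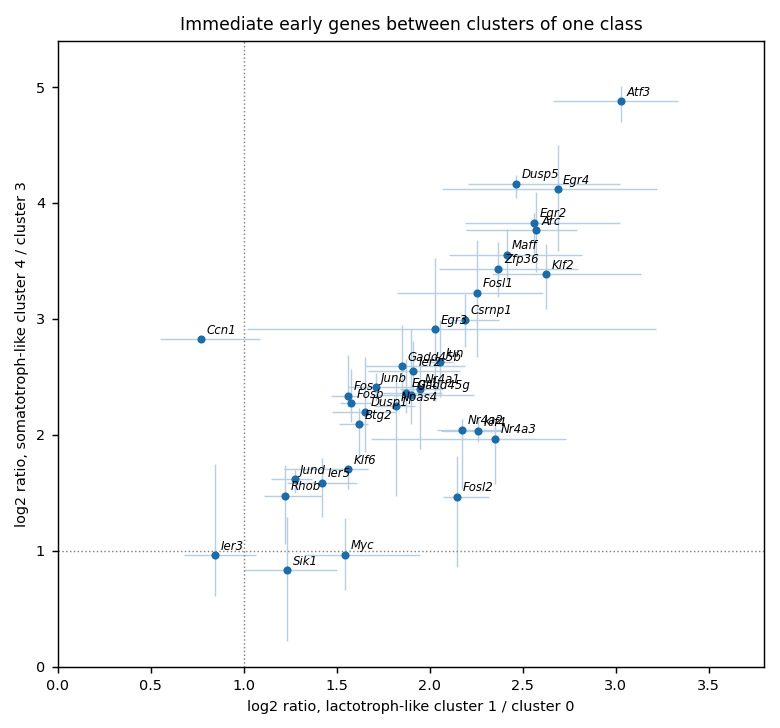
Log2 ratio between clusters for the 35 genes tested in both classes: lactotroph-like cluster 1 over cluster 0 (x axis) and somatotroph-like cluster 4 over cluster 3 (y axis). Bars span the 4 sets where the summed value lies within them, and dotted lines mark 2-fold. All points are above 0 on both axes, Atf3 is farthest out, and Ccn1 is high on the y axis alone.

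Other lists differed between these clusters too. Heat shock genes, which keep proteins folded under stress, were 0.704% and 1.65% of UMIs in lactotroph-like clusters 0 and 1, and 0.483% and 2.32% in somatotroph-like clusters 3 and 4. A list of 32 other early response genes was 0.154% and 0.421%, and 0.135% and 0.503%. A list of 22 kinases and factors that signal to early genes (MAP kinases, SRF, CREB and partners) was near level, 0.0855% and 0.0896%, and 0.0667% and 0.0787%. Hormone genes were lower in the high clusters, 18.2% against 26.6% and 33.2% against 48.3%. Median UMIs were 7766 against 6160, and 9329 against 9508.5. Cells of cluster 4 numbered 396, 535, 859 and 807 in sets 1 to 4 and those of cluster 3 1633, 1679, 1249 and 1201. The genes that set cluster 4 apart included the sterol enzymes Hmgcs1, Idi1 and Lss and the chaperone Dnaja4. Their part in the difference was not tested.

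Across classes the lists differed in how even they were. Of all genes tested, 27.0% were at a similar level and 31.3% were led by a single class in all 4 sets. Of the 14 heat shock genes 8 were at a similar level in all classes and 1 was led by a single class, with a median ratio of highest to lowest class of 2.54. That gene, Dnajb1, a cochaperone of Hsp70, was 3349, 4732, 3647 and 3448 CPM in corticotroph-like cells, 1.70 times the next class. Of the 32 other early response genes, 0 were similar and 14 were led by a single class, among them Ptgs2 (cyclooxygenase 2), with 73.7 CPM in macrophage or microglia-like cells, 7.28 times the next class. Sertad1 was led by endothelial-like cells (240 CPM). Hes1 (489 CPM) and Id1 (505 CPM), targets of Notch and BMP signals, were led by stem or folliculostellate-like cells.

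Of the 22 signalling genes 10 were similar, against 27.0% of all genes. A single class led 7, near the 31.3% of all genes. Elk3, a ternary complex factor that partners SRF, was led by endothelial-like cells (219 CPM, 4.03 times the next), as was Rps6ka3 (103 CPM), an ERK-activated kinase that phosphorylates CREB. Rps6ka1 (95.9 CPM) and Mapk14, the p38 alpha kinase (92.0 CPM), were led by macrophage or microglia-like cells with leads of 1.49 and 1.40 times.

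The other genes were highest in a class that changed between sets. Fos and Jun, whose proteins pair as AP-1, were highest in stem or folliculostellate-like cells by pooled level (8844 and 8708 CPM) and lowest in T cell-like cells (1180 and 1160 CPM). Fosb was highest in corticotroph-like cells (3277 CPM). Egr1, the most studied EGR factor, was 6806 CPM in stem or folliculostellate-like and 6711 CPM in endothelial-like cells, with 628 CPM in T cell-like cells. Atf3 was 3315, 4821, 4117 and 2386 CPM over the sets in stem or folliculostellate-like cells, and 2572 CPM in macrophage or microglia-like cells. In sets 1 and 4 the latter class was higher (3339 and 2519 CPM).

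By pooled level endothelial-like cells were highest for Klf2 (925 CPM), a factor induced by blood flow, and for Rhob (814 CPM), a short-lived small GTPase. They were also highest for Ier3 (792 CPM), Csrnp1 (249 CPM) and Dusp6 (204 CPM). Pituicyte-like cells, which were not among the compared classes, had a higher Dusp6 level of 239 CPM. Klf2 was close in B cell-like cells (853 CPM pooled), which were higher in sets 1, 2 and 4. Egr4 was 217 CPM in corticotroph-like and 153 CPM in melanotroph-like cells. Klf4 (920 CPM), a reprogramming factor, Gadd45g (1387 CPM), a relative of Gadd45b, Zfp36 (2012 CPM), Nr4a1 (1178 CPM) and Arc (461 CPM) were highest in stem or folliculostellate-like cells, each less than 1.5 times the next class. Sik1 was highest in T cell-like cells (157 CPM). Exons of 9 of the 37 genes overlap a gene on the opposite strand in GENCODE vM21, Junb with Prdx2, Fosl1 with Ccdc85b and Dusp1 with Ergic1 among them. Whether counting used strand is not given in the sources used here.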

How the data were processed

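The authors deposited 1 matrix of UMI counts per gene and barcode for all libraries, made with Cell Ranger 8.0.1 per the file headers; the submitters' processing notes also name Seurat, without a version. The genes and lists were chosen with earlier results of these data known. From the deposited counts, barcodes with 500 UMIs, 250 genes and at most 25% mitochondrial UMIs were kept (39839 of 40406), and 3633 doublet calls by Scrublet (expected rate 8%, 9.12% called) were removed per set. The remaining cells were clustered with scanpy 1.11.5 (2000 variable genes without the 37, 30 components, 15 neighbours, Leiden resolution 1, mixed clusters split at 0.5). The cut-offs for naming were chosen with the data in view, and asked for 3 markers of that class, each with a log2 fold over other cells of 0.5 or more from the deposited counts, found in 25% of the cluster. Class sums of counts, by set and pooled, were turned into CPM. Genes with 100 or more UMIs over the classes were tested. A class led a gene when it was highest in all 4 sets and pooled. Pairs were called at 2-fold with the same direction in all sets. Detection was read after thinning to 2000 UMIs, leaving out shallower cells (23 B cell-like and 262 T cell-like cells remained). A count of 0 was given the limit of 3 counts.

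Genes named with their set values were those led by a class at 1.5 times the next, the 6 most even, the 6 with the widest spread between sets, and up to 4 of each other list. Values of other genes are given to account for every member, or to describe a pair or cluster, and these were chosen after their values were seen. The rules were tested on simulated data. Alternatives kept doublets, filtered cells more strictly, clustered with the 37 genes, assigned classes by marker score, left hormone genes out of totals, averaged single-cell CPM, thinned cells, changed the limit for similar levels and left out each set. The software was scipy 1.17.1, numpy 2.4.6, igraph 0.11.9, pandas 2.3.3 and matplotlib 3.10.9 under Python 3.11.15. Promoter letters come from RefSeq tables of GRCm38.p6.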

Additional observations from a re-analysis of the deposited data

Results flagged for a closer look

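The 37 genes were also measured in barcodes that no class comparison used, each time above the limit a count of 0 allows. They made up 2.91% of the UMIs of 246 pituicyte-like cells, the glia of the posterior lobe, where Fos reached 5057 CPM. Ccn2 (220 CPM) and Dusp6 (239 CPM) were above their endothelial-like levels of 164 and 204 CPM there. Only 5 pituicyte-like cells came from set 2. The share of the 37 genes was 1.66% in 84 proliferating-like cells and 2.01% in 32 neutrophil-like cells, from as few as 3 neutrophil-like cells in a set. In the 4267 unnamed barcodes, with a median of 1533 UMIs, it was 2.21%, with Jun at 3279 CPM. Among these barcodes the share was 4.15% in cluster 25 and 4.205% in cluster 29. In the 3633 barcodes called doublets it was 2.84%.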

How the results depend on the processing

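Of 109 counts under other settings 93 stayed within 1.5 times the reported value. The number of genes led in every set by stem or folliculostellate-like cells, 4 as reported, was 7 with doublets kept, 11 with classes by marker score, 7 with hormone genes out of the totals, 2 with the mean of single-cell CPM and 7 over the 9 deeper classes. The number at a similar level, 2 as reported, was 6, 7 and 4 under the first 3 of these settings, 1 with a limit of 3 times and 5 over the deeper classes. Genes led by corticotroph-like cells, 3 as reported, numbered 7 with the mean of single-cell CPM and 5 after thinning. Those led by another class, 6 as reported, numbered 3 over the deeper classes. Genes at least 2 times higher in lactotroph-like than somatotroph-like cells, 13 as reported, numbered 7 with hormone genes out of the totals and 8 after thinning. Corticotroph-like cells at most 1/2 of melanotroph-like went from 1 to 3 genes with hormone genes out of the totals. Leaving out 1 set gave 4 to 8 genes led by stem or folliculostellate-like cells (8 without set 4), 3 to 7 led by corticotroph-like cells (7 without set 2) and 1 to 3 at most 1/2 of melanotroph-like (3 without set 1). The cause of these shifts was not tested. The deeper classes, and all alternatives for class pairs, were chosen after seeing the data. Of 207 levels of 19 named genes 7 moved by over 1.5 times, all of Egr3, Myc, Dusp5 or Fosl2. With doublets kept Egr3 was 322, Myc 185 and Dusp5 455 CPM, and with classes by marker score Egr3 was 24.0, Myc 19.0, Dusp5 196 and Fosl2 173 CPM. No paired analysis was possible because the replicate numbers belong to the diet libraries and no label ties a barcode suffix to a library. Ratios between classes were taken within each set. B cell-like cells were shallowest, with 61543 UMIs in their smallest set.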
